A study of Mus musculus with 6 samples.

Results

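The major histocompatibility complex of the mouse, called H2, was read in a window of 2.5 Mb on chromosome 17, chr17:33900001-36400000 of build mm9. It is defined by position, and every read whose midpoint lay in it was used. For H3K4me3, a histone mark of active gene starts, the window held 1250 of the 1320937 bins of 2 kb in the genome. For H3K36me3, a mark laid down along transcribed gene bodies, it held 250 of the 264195 bins of 10 kb. The window was described in 4 consecutive stretches, 33.9-34.2, 34.2-34.6, 34.6-35.35 and 35.35-36.4 Mb, called here the first, the second, the third and the fourth part.

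The study mapped both marks in mature CD4+ and mature CD8+ T cells taken from the thymus of C57BL/6 mice, a standard inbred strain. Nuclei were digested with micrococcal nuclease, which cuts between nucleosomes, and the mononucleosomes were precipitated with rabbit polyclonal antibodies. The 6 groups were CD4 H3K4me3, CD8 H3K4me3, CD4 H3K36me3, CD8 H3K36me3 and an input without antibody for each cell type. No other treatment, genotype or age is given in the labels, nor the number of mice. With 1 library in each group there was nothing to test between replicates, and p-values are not reported. Printed intervals are exact 95% intervals for counting error only. They compare libraries, not conditions, and since the reads carry no molecular identifiers, repeats of 1 molecule can be among them. The cell types could not be checked against marker genes, because gene positions in mm9 were not used here.

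Class I molecules of this complex display peptides from inside the cell to CD8 T cells and are made by nearly all nucleated cells. Class II molecules display peptides from ingested material to CD4 T cells and are made mainly by antigen-presenting cells, not by resting mouse T cells. The class III genes between them are of mixed function and include complement components, members of the tumour necrosis factor family and heat shock proteins. In the RefSeq gene table of another build, GRCm38.p6, which was used for names and order only, all 9 listed class II genes lay between H2-K1, a classical class I gene, and Notch4, a receptor gene at the start of class III. All 31 listed class III genes lay from Notch4 to Ddx39b, an RNA helicase gene. Of the 17 listed class I heavy chain genes, 15 lay beyond Ddx39b and 1, H2-K1 itself, at the other end. Of the 5 listed antigen processing genes, 4 lay with class II, and Tapbp, whose product helps to load class I molecules, lay before H2-K1. Read in this order, the complex thus passes from Tapbp and H2-K1 through class II and class III to most class I genes. Where these classes begin and end within the 4 parts was not mapped in mm9, so the bins below are given by position and carry no gene names.

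Class I genes arose by duplication, so a read of 33 bases, the width of every read here, can match more than 1 of them. RefSeq promoters of GRCm38.p6 (300 bases, from 250 before to 50 after each gene start) were in the table for 12 of the 17 class I genes. In 8 of these 12, at least 1 word of 33 bases was also found in the promoter of another gene, and 324 of 3216 word positions (10.1%) were shared. The pairs with the longest shared runs are shown as 100 bases from before the gene start, 5′ to 3′ on the gene's strand, with the run that is identical in both genes in capitals. The runs begin 141 bases before the gene start in H2-K1, 201 in H2-D1, 165 in H2-Q6 and 126 in H2-Q7.
H2-K1: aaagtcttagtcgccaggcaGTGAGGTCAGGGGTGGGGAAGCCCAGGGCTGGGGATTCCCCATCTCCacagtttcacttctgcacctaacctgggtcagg
H2-D1: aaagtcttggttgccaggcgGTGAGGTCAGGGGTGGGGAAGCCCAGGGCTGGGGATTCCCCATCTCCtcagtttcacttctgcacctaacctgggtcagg
H2-Q6: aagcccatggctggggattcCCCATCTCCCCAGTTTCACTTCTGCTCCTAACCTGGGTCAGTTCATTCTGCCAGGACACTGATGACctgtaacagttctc
H2-Q7: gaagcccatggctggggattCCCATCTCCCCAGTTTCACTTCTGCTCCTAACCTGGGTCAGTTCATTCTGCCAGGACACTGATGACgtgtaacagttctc

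H2-K1 and H2-D1 encode the classical class I heavy chains of this strain and share a run of 47 bases, and 23 of the 268 words of 33 bases in each promoter (8.58%) occur in the other. H2-Q6 and H2-Q7 are non-classical class I genes with a shared run of 66 bases, and 87 of 268 words (32.5%) of each were shared with other class I promoters. H2-T23, which encodes the molecule Qa-1, shared 65 words with H2-T-ps, and H2-Q2 shared 30 words with Gm10499 and Gm8909. The other promoters with shared words were H2-Q10 with 7 and H2-Q4 with 2, and no word was shared for H2-T3, H2-T22, H2-M2 or H2-M3. Over the 250 bases before the gene start in all 66 pairs of class I promoters, the longest identical run had a median of 11 bases, and 5 pairs had a run of at least 33 bases.

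Outside class I, shared words were found only in class III among the listed genes. None of the 8 class II promoters and none of the 4 antigen processing promoters in the table shared a word of 33 bases with another promoter. Among 23 class III promoters, 363 of 6164 word positions (5.89%) were shared, in 3 genes. Hspa1a and Hspa1b, a pair of nearly identical heat shock protein genes, shared 180 of 268 words (67.2%), and Aif1 shared 3. The share over all promoters of the table was not computed. How reads with several matches were placed by the aligner is not given in the sources used here, so the level of a single class I gene cannot be told apart from that of its copies wherever such words lie. Words were compared between promoters only, and matches elsewhere in the genome were not searched.

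The libraries held 6844546 to 12136610 reads. Of the reads, distinct starts were 54.4% in the CD4 and 31.4% in the CD8 H3K4me3 library, and 91.2% or more in the other 4. In bins away from marked sites the level relative to input was 19.2% for H3K4me3 in CD4 and 1.20% in CD8, and 31.7% and 32.5% for H3K36me3. Within the window, distinct starts were 43.2% of 80337 CD4 and 30.6% of 113851 CD8 H3K4me3 reads.

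Both marks were dense over the complex. H3K4me3 was called enriched in a bin with at least 20 reads and at least 4 times the RPM of the matching input, where RPM is the number of reads scaled to the total of its library and input below 3 reads was set to 3. That held for 169 of 1250 bins in CD4 (13.5%, against 1.74% of all bins in the genome) and 173 in CD8 (13.8%, against 1.59%). With 157 bins shared, 92.9% of the CD4 bins and 90.8% of the CD8 bins were enriched in both cell types, against 84.4% and 92.1% over the genome. H3K36me3, with the same rule in 10 kb bins and a fold of at least 2, was enriched in 82 of 250 bins in CD4 (32.8%, against 10.3% of the genome) and 79 in CD8 (31.6%, against 10.2%). The 73 shared bins were 89.0% of the CD4 and 92.4% of the CD8 bins, against 88.3% and 88.9% over the genome.

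Summed over the window, H3K4me3 lay at 8.64 times the input level (95% interval 8.45 to 8.83) in CD4 and 12.2 times (11.9 to 12.5) in CD8. H3K36me3 lay at 1.98 times (1.93 to 2.04) and 1.88 times (1.82 to 1.93). By the scaling, the whole genome lies at 1. The window held 0.749% of all CD4 and 0.940% of all CD8 H3K4me3 reads, and 0.0867% and 0.0771% of the reads of the inputs.

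**Figure D1:**
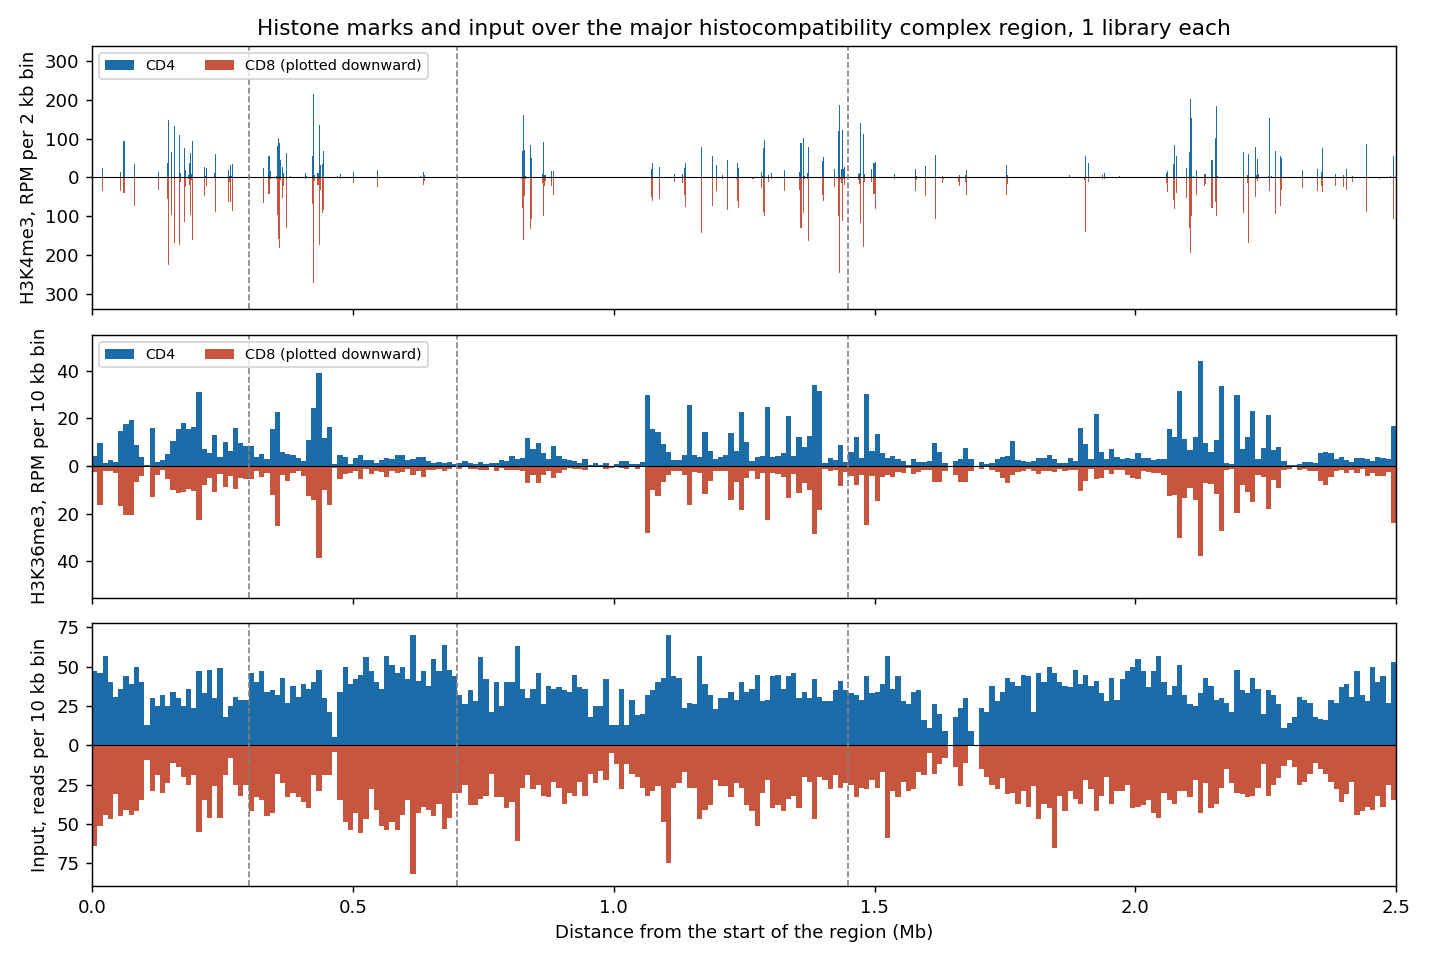
RPM of H3K4me3 per 2 kb bin, RPM of H3K36me3 per 10 kb bin and input reads per 10 kb bin, against the distance from the start of the window in Mb. CD4 is drawn upward and CD8 downward, 1 library each, and dashed lines separate the 4 parts. A long stretch across the border of the second and the third part holds little of either mark, and the input falls to 0 reads in 2 bins of the fourth part.

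Summed over all its bins, the first part was the most heavily marked of the 4 for both marks. It makes up 12.0% of the window's length and held 16.8% of its CD4 and 19.1% of its CD8 H3K4me3 reads. H3K4me3 lay at 12.3 times the input level (11.5 to 13.1) in CD4 and 18.6 times (17.4 to 19.9) in CD8, and H3K36me3 at 2.89 times (2.68 to 3.12) and 2.64 times (2.43 to 2.86). These intervals lie above those of each other part in the same cell type. The order for H3K4me3 depended on thinly or densely covered bins: in bins whose input lay between 0.5 and 2 times the genome median, the first part had 7.29 in CD4 and 9.64 in CD8, below 7.80 and 11.3 in the third. For H3K36me3 the first part had 2.63 and 2.38 in such bins.

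All 28 bins of the first part that were enriched for H3K4me3 in either cell type were enriched in both, and all 28 had an H3K36me3 bin within 10 kb. The strongest was chr17:34046001-34048000, with 1600 reads in CD4 and 2743 in CD8 over 4 and 3 input reads. The next were chr17:34056001-34058000, with 1431 and 2059 reads, and chr17:34066001-34068000, with 1159 and 2120 reads. All 3 lie inside an unbroken run of H3K36me3 bins enriched in both cell types, chr17:34040001-34120000, of 80 kb. That run held 802 CD4 and 594 CD8 H3K36me3 reads, 4.77 and 4.32 times the input.

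The second part was uneven. H3K4me3 lay at 7.34 times the input level (6.98 to 7.73) in CD4 and 10.3 times (9.79 to 10.9) in CD8. H3K36me3 was at 1.50 times (1.40 to 1.60) and 1.44 times (1.34 to 1.54), the lowest of the 4 parts in both cell types. Only 7 of its 40 bins of 10 kb were enriched for H3K36me3, the same 7 in both cell types, against 19 of 30 in CD4 in the first part.

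The marks of the second part sat mostly in its early portion. The strongest H3K4me3 bin of the whole window was chr17:34324001-34326000, with 2320 CD4 and 3285 CD8 reads over 5 and 0 input reads. The other bins named were chr17:34334001-34336000, with 1449 and 2097 reads, and chr17:34258001-34260000, with 960 and 2205. The first 2 of these lie in a run of H3K36me3 of 50 kb, chr17:34310001-34360000, with 689 CD4 and 621 CD8 reads (5.95 and 7.28 times the input). After it followed the longest run without enrichment for H3K36me3 in either cell type, chr17:34360001-34730000, of 370 kb, where H3K36me3 lay below the input, at 0.589 times its level in CD4 and 0.516 times in CD8. Of 29 H3K4me3 bins in the second part, 20 had an H3K36me3 bin within 10 kb.

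The third part began inside that run without H3K36me3 and was mixed. H3K4me3 lay at 8.83 times the input level (8.48 to 9.20) in CD4 and 12.9 times (12.4 to 13.5) in CD8, and H3K36me3 at 1.94 times (1.84 to 2.04) and 1.66 times (1.56 to 1.75). It held 48 H3K4me3 bins in CD4 and 53 in CD8, and 52 of the 54 enriched in either had H3K36me3 within 10 kb. Its H3K36me3 came in 11 runs shared by both cell types, of which 8 were a single bin of 10 kb. The longest was chr17:35250001-35300000, with 661 CD4 and 508 CD8 reads (5.98 and 5.0 times the input).

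Long stretches of the third part held no enriched H3K4me3 bin. No 2 kb bin was enriched for H3K4me3 in chr17:34538001-34722000 (184 kb, begun in the second part) or in chr17:34786001-34972000 (186 kb). A stretch inside the latter, chr17:34800001-34960000, was chosen after its values were seen and lacked both marks. It held 128 CD4 and 31 CD8 H3K4me3 reads (0.276 and 0.0717 times the input) and 162 and 92 H3K36me3 reads (0.556 and 0.382 times), over 440 and 356 input reads. The CD4 H3K4me3 level there is above the CD8 level, as is the level of the 2 libraries away from marked sites given above.

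The strongest H3K4me3 bins of the third part were chr17:35332001-35334000, near its end, with 2001 CD4 and 2977 CD8 reads, chr17:34726001-34728000, with 1730 and 1945, and chr17:35272001-35274000, with 852 and 1998. In the last of these 3 the largest pile of the window was found, 195 CD8 H3K4me3 reads with the same start at 35272571. The second closes the run of 370 kb without H3K36me3 and belongs to the widest CD8 domain described below.

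The fourth part made up 42.0% of the length and held 37.0% of the CD4 and 32.9% of the CD8 H3K4me3 reads. H3K4me3 lay at 8.03 times the input level (7.76 to 8.32) in CD4 and 10.5 times (10.1 to 10.9) in CD8. H3K36me3 lay at 1.97 times (1.89 to 2.06) and 2.03 times (1.93 to 2.13), and this was the only one of the 4 parts whose H3K36me3 value was higher in CD8 than in CD4, by less than the intervals. With both inputs pooled it was 2.13 in CD4 and 1.87 in CD8.

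Marks in the fourth part were grouped toward its later portion. The longest H3K36me3 run was chr17:35960001-36040000, of 80 kb, with 966 CD4 and 919 CD8 reads (5.21 and 5.38 times the input). Inside it lay the strongest H3K4me3 bin, chr17:36004001-36006000, with 2157 CD4 and 2366 CD8 reads. The next was chr17:35378001-35380000, with 1210 and 2168 reads. The third, chr17:36054001-36056000, was the one of the 12 bins named for their strength that was called different between the cell types, with 1967 CD4 and 1221 CD8 reads, 2.41-fold higher in CD4 (2.24 to 2.59). This bin had 0 CD4 and 1 CD8 input reads, and it no longer passed when scaled by total reads, at 0.86 on the log2 scale.

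**Figure D2:**
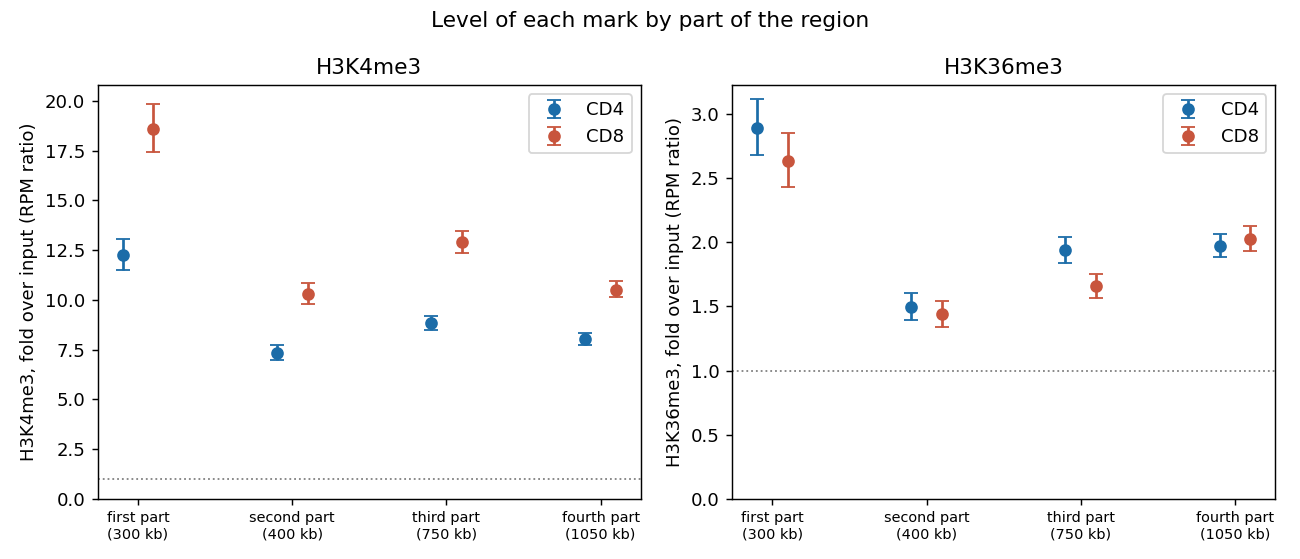
Fold over input of H3K4me3 and H3K36me3 (RPM of the mark divided by RPM of the matching input) in each of the 4 parts, with exact 95% counting intervals, 1 library per point. The dotted line marks 1, the level of the whole genome. The first part is highest for both marks over all bins, and the second is lowest for H3K36me3, at 1.50 in CD4 and 1.44 in CD8.

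H3K36me3 and H3K4me3 did not coincide bin by bin. Of 88 bins of 10 kb enriched for H3K36me3 in either cell type, 54 (61.4%) held an H3K4me3 bin, and 50 others held H3K4me3 without H3K36me3. Seen from H3K4me3, 158 of 185 bins (85.4%) had an H3K36me3 bin within 10 kb, from 69.0% in the second part to 100% in the first. Bins enriched for H3K36me3 were also fewest in the second part, 7 of 40, and most frequent in the first, 19 of 30. Neither share was computed over the genome, so neither is read as a trait of the complex.

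H3K4me3 domains were runs of 200 bp bins at 4 times the input or more, joined over gaps of up to 400 bp. The floor set on input for the bins above was applied to each 200 bp bin. With genome medians of 8 CD4 and 7 CD8 input reads per 2 kb, most 200 bp bins lie below that floor. The rule thus acted mostly as a set minimum of reads per bin, not as a fold over local input. Each domain in the window held at least 20 reads. Domains numbered 110 in CD4 and 112 in CD8. That is 4.4 and 4.48 per 100 kb, against 0.591 and 0.563 over the genome. Their median width was 1200 bp in both cell types, against 1000 bp over the genome. A domain of the other cell type overlapped 104 CD4 and 106 CD8 domains. That overlap was not computed over the genome, so it is not read as a trait of the complex. Density was highest in the first part, at 6.33 in CD4 and 6 in CD8 per 100 kb.

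The widest CD4 domain, chr17:34253801-34260800 in the second part, spanned 7 kb and held 3407 CD4 and 5421 CD8 reads. The widest CD8 domain, chr17:34723801-34730400 in the third part, spanned 6.60 kb and held 3249 and 3564 reads. Each has a counterpart in the other cell type, chr17:34254801-34260800 of 6 kb in CD8 and chr17:34724001-34730200 of 6.20 kb in CD4. The third widest in both was chr17:36002401-36008200 (5.80 kb, CD4) and chr17:36002401-36007800 (5.40 kb, CD8). The fifth in both was the same, chr17:34322801-34326400 (3.60 kb). Only the fourth differed, chr17:36052601-36056600 (4 kb) in CD4 and chr17:35135801-35139800 (4 kb) in CD8. Both overlapped narrower domains of the other cell type. The CD4 one overlapped 2 CD8 domains, chr17:36052601-36055000 and chr17:36055601-36055800. The CD8 one overlapped the CD4 domain chr17:35136001-35139200 (3.2 kb).

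CD4 and CD8 were compared in the bins enriched in either cell type, after centring the log2 ratio on its median over all genome bins enriched in both (-0.40 for H3K4me3 and -0.04 for H3K36me3). A bin was called higher in a cell type when it was 2-fold or more above the other and an exact 99.9% counting interval left out 1. Of 185 H3K4me3 bins, 33 were higher in CD4 (17.8%, against 25.0% of 24614 bins in the genome) and 17 in CD8 (9.19%, against 5.08%). The other 135 did not pass. Scaled by total reads instead, 22 bins were higher in CD4 and 40 in CD8, and with 1 read kept per start position 17 and 10. Total-read scaling leaves out the centring and so moves every bin of the genome toward CD8 by the same amount. Genome shares under these 2 settings are not given here, so their counts are not read as traits of the complex.

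The fourth part held 19 of the 33 CD4-higher and 10 of the 17 CD8-higher bins. These were 25.7% and 13.5% of its 74 enriched bins, against 25.0% and 5.08% over the genome. Its CD4-higher share was thus near that of the genome. In the other parts the counts were 4 and 2 of 28 bins in the first, 5 and 1 of 29 in the second and 5 and 4 of 54 in the third. The bins that differed held fewer reads at the median than all enriched bins. Bins higher in CD4 had a median of 113 CD4 and 44 CD8 reads, and those higher in CD8 had 73 CD4 and 262 CD8 reads, against 229 and 389 over all 185. A stronger enriched bin lay directly beside 17 of the 33, 6 of the 17 and 76 of all 185. Subtracting the background reads of each library, an alternative added after the data were seen, gave 33 and 18 bins, with no genome share given here.

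**Figure D3:**
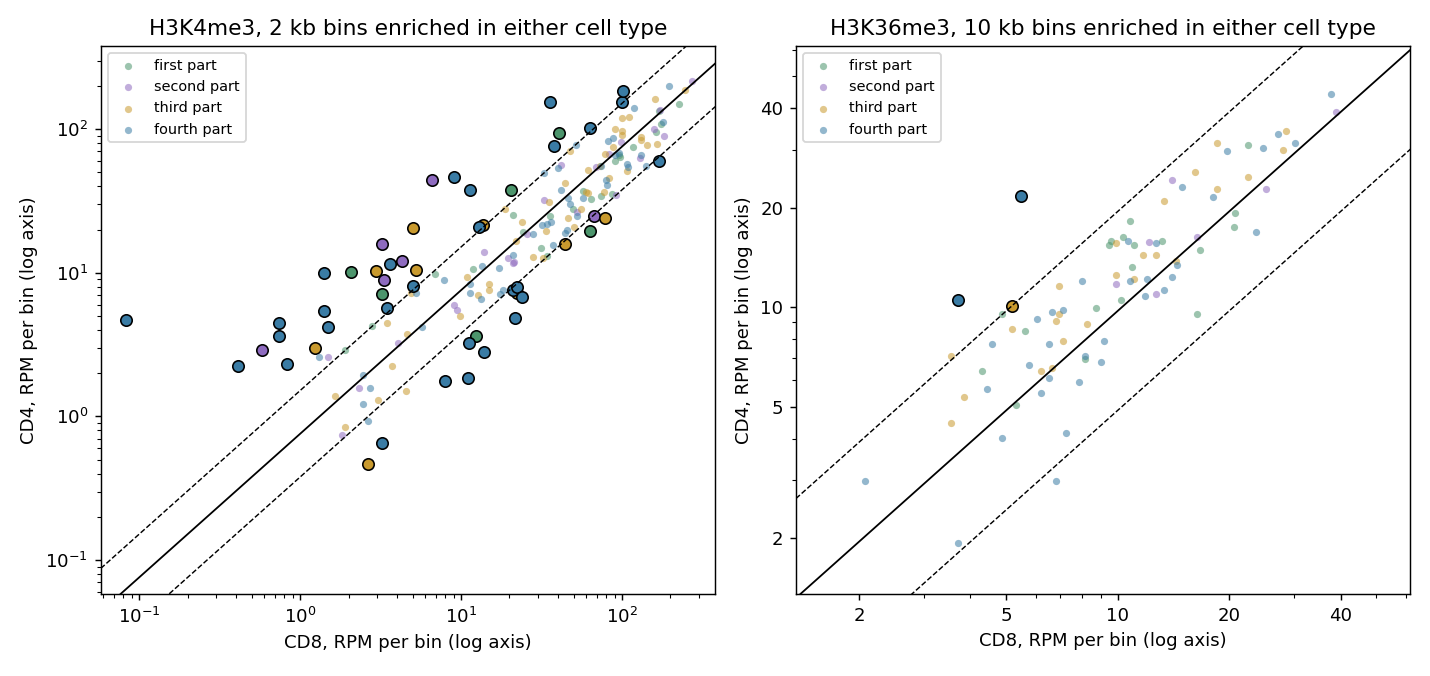
RPM in CD4 against RPM in CD8 for the 185 H3K4me3 bins of 2 kb and the 88 H3K36me3 bins of 10 kb enriched in either cell type, on log axes, coloured by part. The solid line is the genome median ratio, dashed lines are 2-fold either side, and ringed points are the bins called different. The ringed H3K4me3 points are 33 above and 17 below the line, and 3 H3K36me3 bins are ringed, all above the line.

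The bin with the highest lower bound of the CD4 to CD8 ratio was chr17:35868001-35870000, where 50 CD4 reads met 1 CD8 read, a ratio of 74.7 with an interval from 12.8 to 3008. Its CD4 level is low, at 4.66 RPM. Next came chr17:34260001-34262000, with 476 CD4 and 80 CD8 reads, 8.89-fold higher in CD4 (7.0 to 11.4). Its inputs were uneven, with 11 CD4 and 4 CD8 reads. Over input it lay at 41.0 times in CD4 and 16.5 times in CD8. Folds over input, here and below, are scaled by total reads and not centred. Part of the smaller difference over input therefore comes from the scaling. This bin continues the 7 kb domain of the second part on one side, where the neighbouring bin chr17:34258001-34260000 held 960 CD4 and 2205 CD8 reads, 1.54-fold higher in CD8 (1.42 to 1.66). In the same part chr17:34240001-34242000 held 170 and 39 reads, 6.51-fold higher in CD4 (4.57 to 9.47).

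The other 2 bins named for a higher CD4 level lay close together near the end of the window. At chr17:36136001-36138000 there were 107 CD4 and 17 CD8 reads, 9.40-fold (5.61 to 16.7), and at chr17:36156001-36158000 there were 1645 and 430 reads, 5.71-fold (5.14 to 6.37). The second is a strong bin in CD4, at 153 RPM against 35.5 in CD8. Its inputs held 14 CD4 and 5 CD8 reads. Over input, without the centring, it lay at 111 times in CD4 and 70.8 times in CD8. Over the 40 kb that hold both, chr17:36130001-36170000, H3K4me3 had 4021 CD4 and 2431 CD8 reads, 2.47-fold higher in CD4 (2.35 to 2.60). Over input, again without the centring, H3K4me3 in this stretch lay at 31.0 times in CD4 and 20.9 times in CD8. This stretch and the next 2 were chosen after their values were seen. There 6 of 8 enriched bins were higher in CD4 and 0 in CD8. H3K36me3 had 263 CD4 and 217 CD8 reads there, a ratio of 1.25 (1.04 to 1.50), but over input it lay at 3.23 times in CD4 and 3.34 times in CD8, so no direction is read from it.

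Both marks were called higher in CD4 in neighbouring bins of 1 stretch. In chr17:35810001-35830000, 20 kb, H3K4me3 had 430 CD4 and 144 CD8 reads, 4.46-fold higher in CD4 (3.69 to 5.42). H3K36me3 had 166 and 46 reads, 3.72-fold higher in CD4 (2.67 to 5.27). In CD8, H3K36me3 lay at 0.970 times the input there, against 3.18 times in CD4. Its single enriched H3K4me3 bin, chr17:35810001-35812000, held 406 CD4 and 138 CD8 reads.

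Bins higher in CD8 were led by chr17:35560001-35562000, with 20 CD4 and 134 CD8 reads, 4.49-fold higher in CD8 (2.79 to 7.58). The next, chr17:35530001-35532000, had 30 and 168 reads, 3.75-fold (2.53 to 5.73), with 0 reads in both inputs. Both lie in a stretch of 50 kb of thin input, chr17:35530001-35580000, with 81 CD4 and 59 CD8 input reads. There H3K4me3 had 409 CD4 and 1280 CD8 reads, 2.10-fold higher in CD8 (1.87 to 2.35), and 4 of 6 enriched bins were higher in CD8. H3K36me3 had 94 and 129 reads, 1.33-fold higher in CD8 (1.01 to 1.76). A CD8 domain of 1.20 kb in it, chr17:35531001-35532200, overlapped no CD4 domain, with 33 CD4 and 196 CD8 reads. Whether reads with several matches have a part in this was not tested.

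The other bins named for a higher CD8 level were chr17:35138001-35140000, with 258 CD4 and 944 CD8 reads, 2.45-fold (2.13 to 2.82), chr17:34160001-34162000, with 209 and 770 reads, 2.47-fold (2.11 to 2.89), and chr17:35802001-35804000, with 19 and 96 reads, 3.38-fold (2.05 to 5.86). With 1 read kept per start position the first 2 no longer passed, at log2 ratios of -0.85 and -0.81. The first of them lies in the fourth widest CD8 domain. Of the 5 bins named for a higher CD8 level, only chr17:35802001-35804000 had input between 0.5 and 2 times the genome median.

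**Figure D4:**
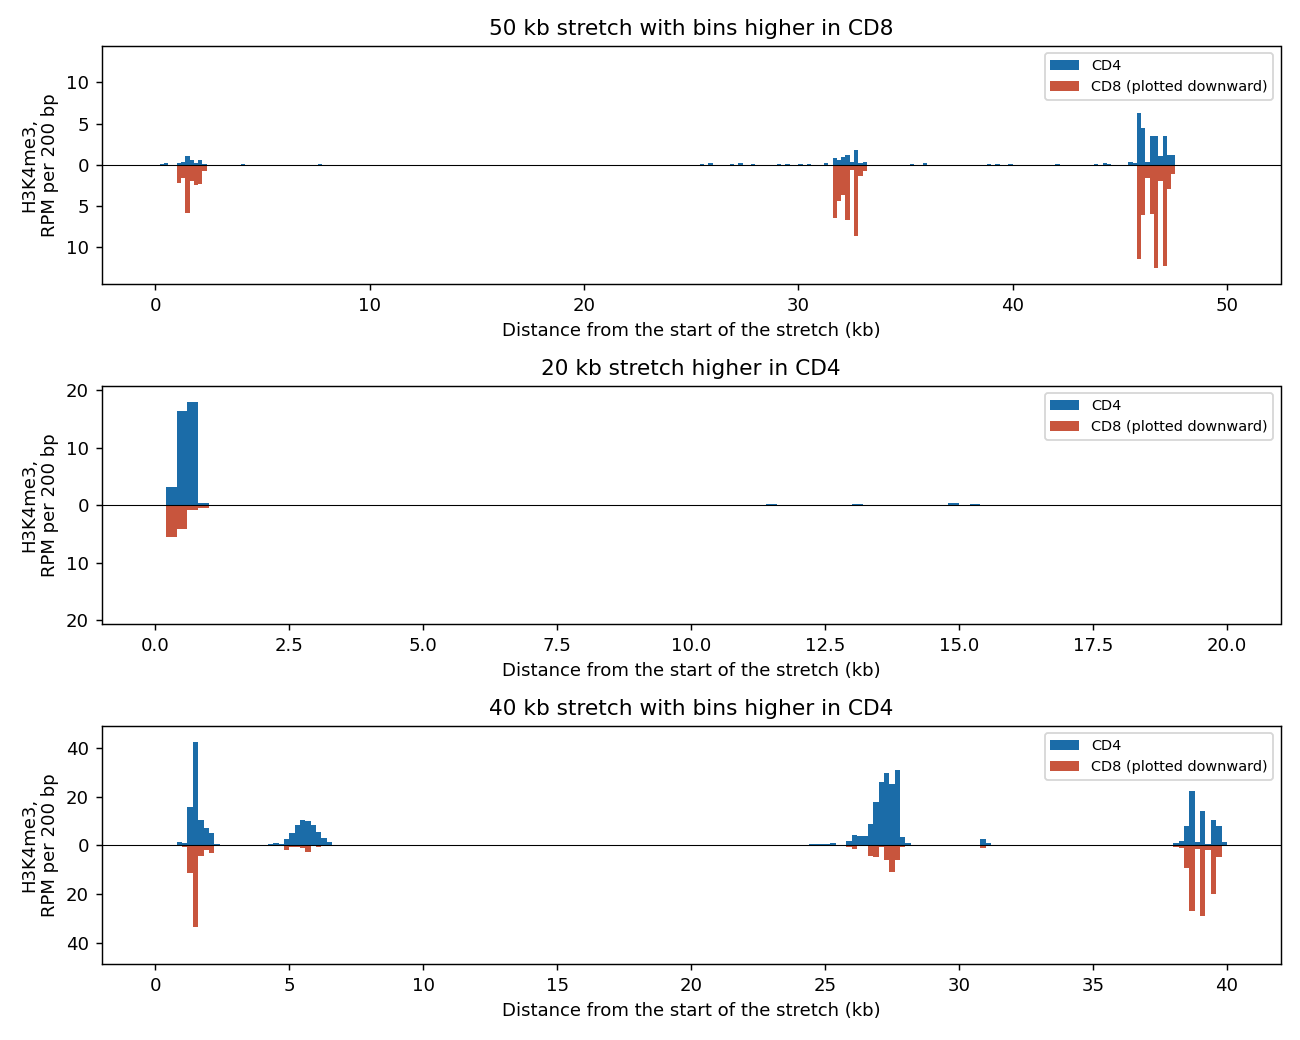
H3K4me3 RPM per 200 bp along 3 stretches of the fourth part, with CD4 drawn upward and CD8 downward, against the distance in kb from the start of each stretch (50, 20 and 40 kb). The top stretch had 409 CD4 and 1280 CD8 reads, the middle one 430 and 144, and the bottom one 4021 and 2431.

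For H3K36me3, 3 of 88 bins were higher in CD4 (3.41%, against 2.08% of 30253 bins in the genome) and 0 in CD8 (0.840% in the genome). The leading bin, chr17:35820001-35830000, belongs to the stretch above with both marks higher in CD4 and held 146 CD4 and 37 CD8 reads, 4.07-fold (2.82 to 6.00). The others were chr17:35660001-35670000, with 71 and 25 reads, 2.93-fold (1.83 to 4.82), and chr17:35150001-35160000, with 68 and 35 reads, 2.00-fold (1.31 to 3.10). The last sits on the 2-fold limit and fell just below it with total-read scaling and with 1 read per start position, at 0.96 on the log2 scale in both, and in evenly covered bins, at 0.997.

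Summed over all bins of a part, the CD4 to CD8 ratio of H3K4me3 was set against the median of the genome bins enriched in both cell types. On the log2 scale it was -0.11 in the first part (-0.14 to -0.08), -0.0040 in the second (-0.04 to 0.03), 0.03 in the third (0.01 to 0.06) and 0.24 in the fourth (0.22 to 0.27). The sign depended on the scaling. Total-read scaling sets the reads of the whole genome equal between the cell types. With it the ratio was negative in all 4 parts, at -0.51, -0.41, -0.37 and -0.16. Against all reads of the genome, the window thus held relatively more in CD8, 0.940% of the reads, than in CD4, 0.749%. Over the whole genome, 96.7% of the CD8 and 76.3% of the CD4 H3K4me3 reads lay in enriched bins. The higher CD8 share is therefore not read as a trait of the complex.

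For H3K36me3 all 4 sums were higher in CD4, at 0.26, 0.18, 0.45 and 0.23 on the log2 scale. The median over the 88 enriched bins was 0.29, against 0.01 over the genome. The inputs moved the same way: 8820 CD4 and 7694 CD8 input reads lay in the window, 1.12-fold more in CD4 after scaling (1.09 to 1.16), with log2 values of 0.09, 0.08, 0.18 and 0.23 by part. Divided by the input ratio, an alternative added after the data were seen, the values were 0.17, 0.095, 0.27 and -0.0032.

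The inputs were read for places where reads are missing or pile up. The median was 13 input reads per 2 kb bin, both inputs summed, against 16 over the genome, and by part it was 13, 16, 12 and 12. Bins with under 5 reads made up 6.67%, 5.0%, 6.93% and 11.8% of the 4 parts, against 12.4% of the genome. Bins with 0 input reads were most frequent in the fourth part, 27 of 525 (5.14%), against 0.800% to 2.00% in the other 3 and 7.02% of the genome.

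The longest run of bins with no input read lay in the fourth part, chr17:35582001-35600000, of 18 kb. In the other parts the longest were 6 kb at chr17:34004001-34010000, 4 kb at chr17:34356001-34360000 and 4 kb at chr17:34660001-34664000. At the scale of 10 kb, chr17:35540001-35550000 and chr17:35590001-35600000 held 0 reads in both inputs, and 0 to 1 read in each library of either mark. Since no input read was placed there, a missing mark cannot be told apart from missing reads.

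Piles of input reads were few. More than 2 times the genome median was found in 10 of 1250 bins (0.800%, against 1.09% of the genome). The fullest bin was chr17:34516001-34518000 in the second part, with 26 CD4 and 38 CD8 input reads, and the fullest of the others were chr17:34100001-34102000 (21 and 26), chr17:35064001-35066000 (27 and 22) and chr17:35428001-35430000 (15 and 18).

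Thin input touched the H3K4me3 bins unevenly. Of the 185 enriched bins, 17 had under 5 input reads, among them 4 of the 17 that were higher in CD8 and 1 of the 33 that were higher in CD4. In the 128 enriched bins whose input lay between 0.5 and 2 times the genome median, 27 were higher in CD4 and 8 in CD8, where the shares over the genome's bins of that kind are 26.5% and 5.32%. Among the 4 parts the first had 15 such bins of its 28.

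**Figure D5:**
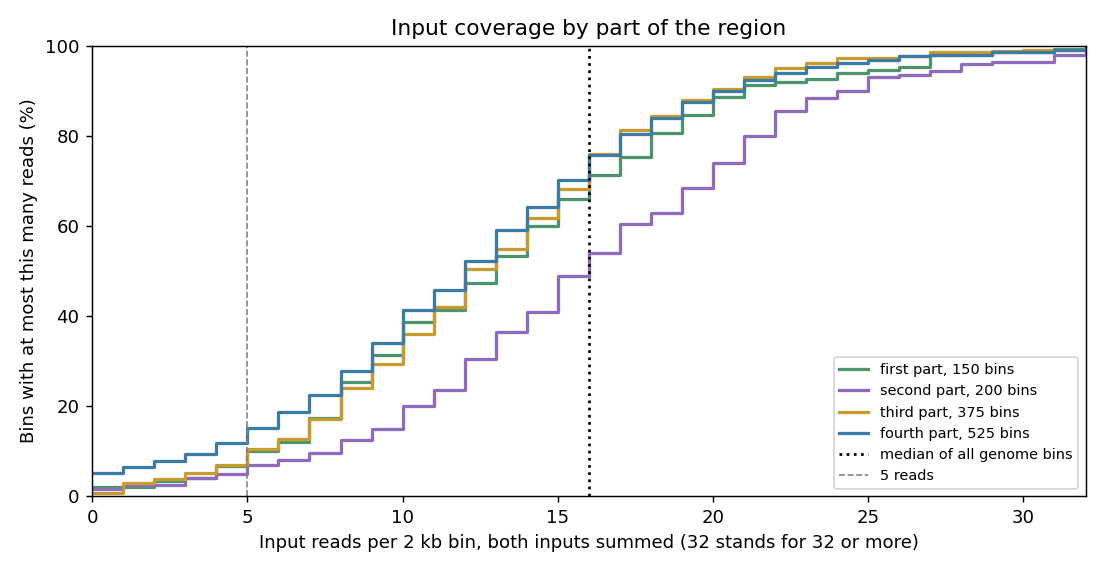
Share of 2 kb bins, in percent, with at most a given number of input reads (both inputs summed) in each of the 4 parts. The dotted line is the genome median of 16 reads and the dashed line marks 5 reads. The fourth part starts highest, with 5.14% of its bins at 0 reads, and the second lies lowest, with a median of 16.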

How the data were processed

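Each deposited file lists the start and end of aligned reads of 33 bp, in no unit other than positions, with no strand or score. The build is mm9 (per the submitters' processing notes). Not given in the sources used here are the aligner, how it placed reads with more than 1 match, and whether repeated reads had been removed. Counts of reads per bin, RPM and folds were computed here from the positions the authors deposited. Only the chromosomes 1 to 19, X and Y entered, and each read was counted in the bin that held its midpoint.

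The bin rules were applied to the whole genome and the window's rows reported. Intervals are exact (Clopper-Pearson, conditional on the sum). The rule for bins that differ and the interval were tested on simulated independent counts. These held no repeated reads, so that test does not show how the rule acts on libraries with repeats. The named bins were the 3 strongest H3K4me3 bins of each part, up to 5 bins per mark and direction ranked by the lower end of the fold's interval, the longest H3K36me3 run of each part, the 5 widest domains per cell type, and the fullest input bin and longest run without input reads of each part, adjacent bins taken once. The window, its parts, the gene lists and the rules were chosen with earlier results of these data known. Cell type marker lists were not applied, since no mm9 annotation was used here. Alternatives were pooled inputs, 1 read per start position, total-read scaling, a minimum of 50 reads, stricter folds, shifted bins, evenly covered bins and wider joined gaps. The tools were Python (3.11.15) with SciPy 1.17.1, NumPy 2.4.6, matplotlib 3.10.9 and pandas 2.3.3.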

Additional observations from a re-analysis of the deposited data

How the results depend on the processing

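No paired analysis was possible because each group is 1 library. Counting error is the only error measured, and bins with few input reads limit every fold over input. The numbers of enriched bins over the window and of domains stayed within 1.5 times of the reported ones under every alternative run. The cause of the changes below was not tested.

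H3K4me3 bins higher in CD4 numbered 17 with 1 read kept per start position, against 33, and 22 to 31 with total-read scaling, a 3-fold limit, 50 reads, shifted bins or evenly covered bins. Those higher in CD8 numbered 10 with 1 read per start position, 40 with total-read scaling, 6 at 3-fold and 8 in evenly covered bins, against 17. H3K36me3 bins higher in CD4 fell from 3 to 1 at 3-fold. Apart from the H3K4me3 shares in evenly covered bins above, genome shares under these settings are not given here. The counts therefore show only how the calls depend on the settings.

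Levels are given as folds over input in the order of the parts. With 1 read per start position CD4 H3K4me3 was 9.54, 5.66, 6.87 and 6.37, and CD8 was 17.4 and 9.10 in the first 2. In evenly covered bins CD4 H3K4me3 was 7.29, 4.4, 7.80 and 6.23, CD8 H3K4me3 9.64, 5.88, 11.3 and 7.0, CD4 H3K36me3 2.63, 1.33 and, in the fourth, 1.83, and CD8 H3K36me3 2.38, 1.26 and, in the fourth, 1.88. With pooled inputs the third and the fourth part had 9.38 and 8.66 (CD4 H3K4me3), 12.1 and 9.68 (CD8 H3K4me3), 2.06 and 2.13 (CD4 H3K36me3) and 1.55 and 1.87 (CD8 H3K36me3).

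Log2 CD4 to CD8 ratios of H3K4me3, in the order of the parts, were -0.51, -0.41, -0.37 and -0.16 with total reads, the last 2 of opposite sign to the reported values. With 1 read per start position they were -0.068 and 0.098 in the first 2 and 0.20 in the fourth. In evenly covered bins they were 0.016, of opposite sign, in the first, 0.0099 in the third and 0.42 in the fourth. Of 2 alternatives added after the data were seen, subtracting background gave -0.039, 0.0069 and 0.21 in the last 3 parts, and dividing by the input ratio gave -0.20, -0.086, -0.15 (of opposite sign) and 0.015. For H3K36me3 subtraction gave 0.55 in the third part, and the input ratio gave 0.27 in the third and -0.0032, of opposite sign, in the fourth.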
